A study of Mus musculus with 8 samples.

Results

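A set of 10 genes that mark cardiac fibroblasts were followed through whole-heart RNA sequencing of diabetic db/db mice and their db/m counterparts. The members, taken by symbol from the table of counts, were Pdgfra, Tcf21, Dpep1, Dcn, Lum, Dpt, Mfap5, Fn1, Postn and Gsn, out of 55573 genes in that table. All 10 passed the filter on low counts that left 17411 genes for testing. The hearts came from male C57BLKS/J mice, 24 weeks old, in 4 db/db and 4 db/m libraries. In db/db mice both copies of the leptin receptor gene carry the recessive db mutation, and the animals become obese and diabetic. In db/m mice a single copy carries it, so the controls hold the allele too but stay lean. The mutation is present in every cell of the body, and an effect on the heart cannot be assigned to heart cells. The libraries are named here by genotype and replicate number, db/db 1 to 4 and db/m 1 to 4. The labels do not say that each library is a separate animal and give no batch, so the spread behind each p-value is that of these samples and could include technical variation.

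Cardiac fibroblasts are resident mesenchymal cells, most of them derived from the epicardium, that build and maintain the collagen-rich matrix between heart muscle cells. At rest they carry the receptor Pdgfra and the transcription factor Tcf21 and secrete proteoglycans and microfibril proteins. After injury or under pressure load they can become activated, when genes such as Postn and Fn1 are induced. Fibroblast-like cells with many of the same genes also lie in fat tissue, valves and vessel walls.

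The 8 libraries held 19541757 to 22249911 counts in db/db and 20659351 to 21847393 in db/m. Heart muscle genes led them, with a summed level of the 6 cardiomyocyte markers of 27752 to 35445 CPM in db/db and 28806 to 34861 CPM in db/m, where CPM, the unit of all levels given here, relates counts to a library size scaled between samples. Lepr, the leptin receptor gene, averaged 5.76 ± 1.36 CPM in db/db and 10.7 ± 7.02 CPM in db/m (SD, n = 4 each), and as the db mutation alters splicing, this total cannot tell the genotypes apart. The control group was divided. Adipoq, which encodes the fat cell hormone adiponectin, had 2, 1, 0 and 0 counts in db/db 1 to 4, against 1082, 4, 2243 and 10 counts in db/m 1 to 4. Results are therefore given with all 8 libraries and again without db/m 1 and db/m 3, the db/m libraries with over 100 Adipoq counts, which are called Adipoq-rich below. In db/m 3 the counts also leaned towards long genes. Relative to the other 7 libraries, the median log2 deviation in db/m 3 was -0.55 in the shortest genes (56 to 1848 bases) and 0.42 in the longest (6097 to 123179 bases), each a class of equal size among 4.

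The sequences before the start of 4 members are shown as examples, and these genes do not cover every pattern described below. Postn and Dpt are 2 of the members that stood highest in db/m 1, Gsn is the most abundant member, and Dpep1 is the one that was highest in a db/db library. Each line gives 250 bases before the RefSeq start on GRCm38.p6, 5′ to 3′ on the strand of the gene, with capitals for any motif found. The motifs searched on both strands were the E-box CAGCTG, of the kind bound by TCF21, the TATA sequence TATAAA, the AP-1 sequence TGANTCA and the GC box GGGCGG, and no matches overlapped.
Postn (chr3:54360857-54361106, plus strand): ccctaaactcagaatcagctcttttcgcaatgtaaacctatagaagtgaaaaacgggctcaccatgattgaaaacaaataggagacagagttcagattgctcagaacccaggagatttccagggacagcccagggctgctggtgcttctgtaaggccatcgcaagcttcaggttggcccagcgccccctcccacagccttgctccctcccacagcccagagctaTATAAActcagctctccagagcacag
Dpt (chr1:164796413-164796662, plus strand): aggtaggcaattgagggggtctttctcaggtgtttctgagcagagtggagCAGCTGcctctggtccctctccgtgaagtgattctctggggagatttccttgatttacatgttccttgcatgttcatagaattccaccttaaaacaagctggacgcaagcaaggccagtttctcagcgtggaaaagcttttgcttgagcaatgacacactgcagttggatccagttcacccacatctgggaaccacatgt
Gsn (chr2:35256109-35256358, plus strand): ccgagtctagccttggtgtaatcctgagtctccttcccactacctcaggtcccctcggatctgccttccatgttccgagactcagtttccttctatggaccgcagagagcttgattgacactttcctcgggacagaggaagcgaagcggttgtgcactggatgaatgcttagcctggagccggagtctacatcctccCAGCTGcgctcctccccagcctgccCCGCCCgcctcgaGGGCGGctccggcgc
Dpep1 (chr8:123185985-123186234, plus strand): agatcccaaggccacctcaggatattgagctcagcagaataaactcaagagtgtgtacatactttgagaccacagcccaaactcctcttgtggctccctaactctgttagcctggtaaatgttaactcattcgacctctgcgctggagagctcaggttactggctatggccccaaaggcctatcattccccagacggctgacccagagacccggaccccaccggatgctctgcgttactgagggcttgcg

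RefSeq promoters were found for 6 of the 10 members, the other two of which were Pdgfra and Tcf21. Postn held TATAAA starting 26 bases before its start, a sequence present in 12.4% of the 32851 promoters in the table. The E-box CAGCTG stood in Dpt, 200 bases before the start, and in Gsn, 53 bases before it, which is 2 of 6 members against 13.0% of all promoters. Gsn also held GGGCGG at 28 bases (opposite strand) and 15 bases before its start, a sequence found in 32.7% of promoters. TGANTCA was in 0 of 6, against 6.75% of promoters, and Dpep1 held none of the 4 motifs in this window. These matches describe the letters and not sites of binding.

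With all 8 libraries none of the 10 markers passed the test between db/db and db/m hearts. In edgeR, with Benjamini-Hochberg adjustment over every gene tested, 0 of 10 markers passed the threshold of 0.05, where 0.00574% of genes tested did. An unadjusted p under 0.05 was reached by Dpep1, higher in db/db, as in 5.12% of all genes tested, and by Fn1, lower in db/db, as in 7.84%. DESeq2 and limma-voom called 0 markers each, against 2.17% and 0.747% of genes. The median log2 fold change over the markers, db/db over db/m, was -0.09, with 4 positive and 6 negative, against -0.02 over all genes tested, of which 47.7% were positive. By limma-voom with sample weights the median over the markers was 0.20. That fit gave db/m 3 a weight of 0.124, and the other libraries weights of 0.943 to 2.09. The groups overlapped in all 10 markers, while 9.65% of genes tested had groups that did not. In whole tissue, fewer fibroblasts and less RNA per fibroblast cannot be told apart.

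Behind those values lay a wide spread among the controls. Both Adipoq-rich db/m libraries lay above both other db/m libraries in 9 of the 10 markers, a pattern seen in 25.2% of genes tested, and Dpep1 was the exception. They lay above all 6 other libraries in 3 markers, Lum, Fn1 and Postn, beside 15.0% of genes. The highest library was db/m 1 for 7 markers, db/m 3 for 2 and db/db 2 for 1. The coefficient of variation among replicates was larger in db/m than in db/db for all 10 markers, where 71.4% of genes tested had it larger in db/m. Its median over the markers was 21.0% in db/db and 43.4% in db/m, compared with 14.7% and 24.5% over all genes.

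**Figure D1:**
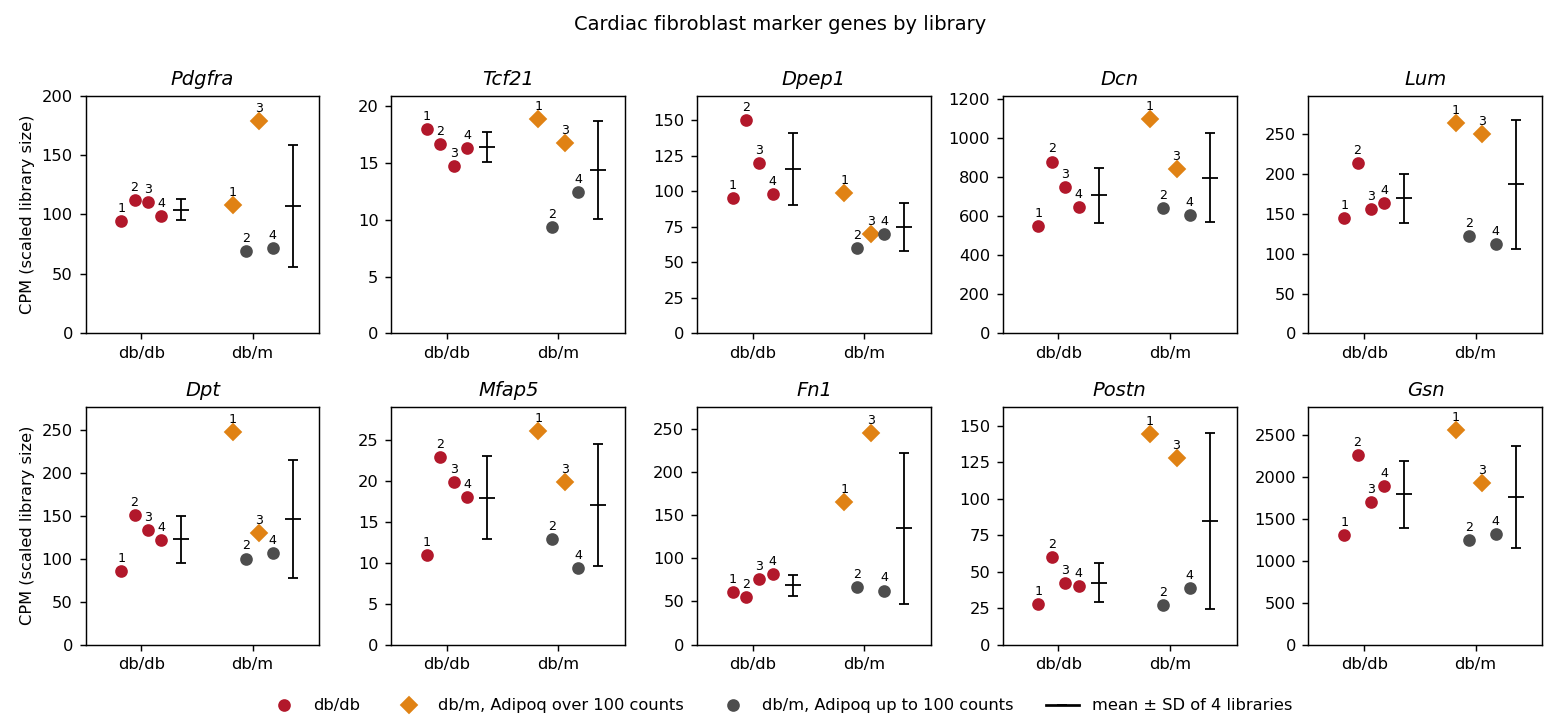
Level of each marker in CPM (vertical axis, from 0) in the db/db libraries (left) and the db/m libraries (right), with replicate numbers at the points and the mean ± SD of 4 libraries as bars. The db/m libraries with over 100 Adipoq counts, db/m 1 and db/m 3, are diamonds: they sit above db/m 2 and db/m 4 in 9 of 10 panels, and the db/db mean is above the mean of db/m 2 and db/m 4 in 10 panels and below that of db/m 1 and db/m 3 in 9.

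Without the Adipoq-rich libraries the 6 negative values of the list turned positive. All 10 markers then had a positive log2 fold change (50.4% of genes did), with a median of 0.50 against 0.0023 over all genes. Both libraries left out lay above both other db/m libraries in 9 of the 10 markers. The rise of these values was thus largely fixed by leaving them out, and the counts below depend on that choice. Again 0 of 10 passed edgeR with Benjamini-Hochberg adjustment, where 0.256% of genes did. The unadjusted p was under 0.05 in 6 markers, all higher in db/db, beside 5.63% of genes tested that were higher at that level. All 4 db/db libraries lay above both remaining db/m libraries in 4 markers, Pdgfra, Tcf21, Lum and Dpep1, beside 10.8% of genes. In the same 6 libraries DESeq2 called 3 markers higher, Dpep1 (Benjamini-Hochberg adjusted p = 0.000734), Pdgfra (0.00159) and Lum (0.0450), beside 1.21% of genes called higher. The spread of db/m rests there on 2 libraries, and edgeR gave these 3 markers adjusted p-values of 0.118, 0.0674 and 0.218.

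**Figure D2:**
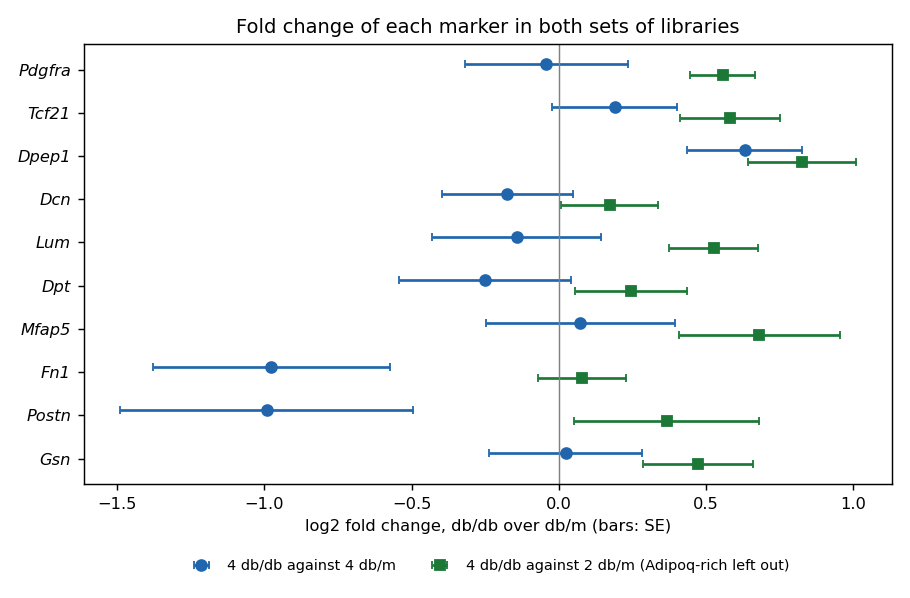
Log2 fold change of each marker, db/db over db/m (horizontal axis, bars are SE), from edgeR with 4 db/db against 4 db/m libraries (circles) and with 4 db/db against the 2 db/m libraries that are not Adipoq-rich (squares). With all libraries the values run from -0.99 for Postn to 0.63 for Dpep1, and without the Adipoq-rich libraries all 10 lie above 0, from 0.08 for Fn1 to 0.83 for Dpep1.

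Pdgfra, the receptor tyrosine kinase for PDGF ligands on fibroblasts and other mesenchymal cells (ENSMUSG00000029231, chromosome 5, 75152292 to 75198215, mm10), had 94.4, 112, 111 and 98.4 CPM in db/db 1 to 4, against 108, 68.9, 179 and 71.7 CPM in db/m 1 to 4. The db/db libraries lay close together, while db/m 3 had 2.60 times the level of db/m 2. Means were 104 ± 8.79 CPM in db/db and 107 ± 51.3 CPM in db/m (SD, n = 4 each), a log2 fold change of -0.04 (SE 0.28, edgeR adjusted p = 0.952). Without the Adipoq-rich libraries the value was 0.56 (SE 0.11, edgeR adjusted p = 0.0674), a 1.47-fold higher level in db/db with no overlap. Of the 10 markers Pdgfra had the smallest edgeR p in that comparison.

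Tcf21, the transcription factor that specifies the fibroblast lineage in the epicardium (ENSMUSG00000045680, chromosome 10, 22817281 to 22820174), had 18.0, 16.7, 14.7 and 16.3 CPM in db/db 1 to 4, against 18.9, 9.38, 16.8 and 12.4 CPM in db/m 1 to 4. Both lowest values were in db/m 2 and db/m 4. Its log2 fold change was 0.19 (SE 0.21, edgeR adjusted p = 0.679) with all libraries and 0.58 (SE 0.17, edgeR adjusted p = 0.221) without the Adipoq-rich ones.

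Dpep1, a membrane-anchored dipeptidase that also cleaves leukotriene D4 (ENSMUSG00000019278, chromosome 8, 123186242 to 123201812), was the one marker whose level in db/db stood above 3 of the 4 db/m libraries in every replicate. It had 95.4, 150, 120 and 98.0 CPM in db/db 1 to 4, against 98.9, 60.1, 69.9 and 70.0 CPM in db/m 1 to 4. The groups overlapped through db/m 1 alone, which lay above db/db 1 and db/db 4. Means were 116 ± 25.5 CPM in db/db and 74.7 ± 16.8 CPM in db/m (SD, n = 4 each), with a log2 fold change of 0.63 (SE 0.20), or 1.55-fold. The edgeR test missed the threshold (adjusted p = 0.296, unadjusted p = 0.00891). Unlike the other 9 markers, Dpep1 averaged more in db/db than in the Adipoq-rich db/m libraries, which had a mean of 84.4 CPM. Its log2 fold change stayed positive in all 20 alternatives, between 0.48 and 0.83.

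The next 4 members are secreted parts of the collagen and microfibril network. Dcn encodes decorin, a small leucine-rich proteoglycan that binds collagen fibrils (ENSMUSG00000019929, chromosome 10, 97479609 to 97518143). It had 551, 880, 749 and 644 CPM in db/db 1 to 4, against 1100 (1099.8), 642, 839 and 604 CPM in db/m 1 to 4. The ranges of the genotypes overlapped, with db/db 1 lowest and db/m 1 highest. The log2 fold change was -0.17 (SE 0.22, edgeR adjusted p = 0.722) with all libraries and 0.17 (SE 0.16, edgeR adjusted p = 0.778) without the Adipoq-rich ones.

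Lum, lumican, is a proteoglycan of the same family that sets the thickness of collagen fibrils (ENSMUSG00000036446, chromosome 10, 97565128 to 97572703, the chromosome of Dcn). It had 144, 214, 156 and 164 CPM in db/db 1 to 4, against 264, 122, 251 and 113 CPM in db/m 1 to 4. All 4 db/db libraries lay in the gap between the Adipoq-rich and the other db/m libraries. Its log2 fold change of -0.14 (SE 0.29, edgeR adjusted p = 0.821) became 0.53 (SE 0.15, edgeR adjusted p = 0.218) without the Adipoq-rich libraries. Lum had the profile closest to the mean of the 10 markers, with a root mean square difference of 0.10 on the log2 scale over the 8 libraries.

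Dpt, dermatopontin, a matrix protein that binds decorin (ENSMUSG00000026574, chromosome 1, 164796644 to 164824266), had 85.8, 151, 134 and 122 CPM in db/db 1 to 4, against 248, 100.4, 130.2 and 106 CPM in db/m 1 to 4. One library, db/m 1, stood above the rest, and db/m 3 lay within the db/db range. The log2 fold change was -0.25 (SE 0.29, edgeR adjusted p = 0.697) with all libraries and 0.25 (SE 0.19, edgeR adjusted p = 0.722) without the Adipoq-rich ones. Mfap5, a glycoprotein of elastic microfibrils (ENSMUSG00000030116, chromosome 6, 122505845 to 122529290), had 11.0, 22.9, 19.9 and 18.1 CPM in db/db 1 to 4, against 26.1, 12.9, 19.9 and 9.40 CPM in db/m 1 to 4. Here db/db 1 lay among the low db/m libraries. Mfap5 had a log2 fold change of 0.07 (SE 0.32, edgeR adjusted p = 0.926), and 0.68 (SE 0.27, edgeR adjusted p = 0.409) without the Adipoq-rich libraries.

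Fn1 and Postn, the markers tied to activated fibroblasts, showed the widest division of the controls. Fn1 encodes fibronectin, a matrix glycoprotein that cells bind through integrins (ENSMUSG00000026193, chromosome 1, 71585520 to 71653200). It had 61.1, 55.2, 75.6 and 81.6 CPM in db/db 1 to 4, against 165, 66.3, 245 and 62.6 CPM in db/m 1 to 4. The db/db values surrounded those of db/m 2 and db/m 4, and both Adipoq-rich libraries were far above. Means were 68.4 ± 12.3 CPM in db/db and 135 ± 87.5 CPM in db/m (SD, n = 4 each), a log2 fold change of -0.98 (SE 0.40) that did not pass (edgeR adjusted p = 0.361, unadjusted p = 0.0357). Without the Adipoq-rich libraries it was 0.08 (SE 0.15, edgeR adjusted p = 0.907).

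Postn encodes periostin, a matricellular protein made by activated fibroblasts and by valve cells (ENSMUSG00000027750, chromosome 3, 54361109 to 54391037). It had 27.7, 60.3, 42.2 and 39.8 CPM in db/db 1 to 4, against 145, 26.8, 128 and 38.9 CPM in db/m 1 to 4. The Adipoq-rich libraries averaged 4.15 times the other db/m libraries, the largest such ratio of the 10 markers, next to 3.18 for Fn1, 2.19 for Lum and 1.30 for Dpep1. The log2 fold change of -0.99 (SE 0.50, edgeR adjusted p = 0.420) became 0.37 (SE 0.31, edgeR adjusted p = 0.762) without them.

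Gsn, gelsolin, an actin-severing protein with cytoplasmic and secreted forms, is made by fibroblasts and by other cells of the heart (ENSMUSG00000026879, chromosome 2, 35256380 to 35307892). It had 1306, 2264, 1698 and 1894 CPM in db/db 1 to 4, against 2554, 1244, 1926 and 1322 CPM in db/m 1 to 4. The genotypes covered much the same range, and db/m 2 was the lowest library. Its log2 fold change was 0.02 (SE 0.26, edgeR adjusted p = 0.973) with all libraries and 0.47 (SE 0.19, edgeR adjusted p = 0.392) without the Adipoq-rich ones.

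Per kilobase of gene length the markers differed widely in abundance. In db/db Gsn led with 567 ± 127 CPM per kilobase, above Dcn with 121 ± 24.2 (SD, n = 4). Dpt followed with 71.4 ± 16.0 and Lum with 69.4 ± 12.6, a pair whose libraries overlapped, and the lowest Lum value lay below the highest of Dpep1. Dpep1 had 46.6 ± 10.2 and Pdgfra 10.4 ± 0.877, each apart from the gene below it in all 4 libraries. Tcf21 at 6.99 ± 0.570, Fn1 at 5.85 ± 1.05, Mfap5 at 5.01 ± 1.41 and Postn at 4.89 ± 1.55 each overlapped with its neighbour. In db/m the order was the same for the first 5, from Gsn at 558 ± 193 to Dpep1 at 30.1 ± 6.75, while Fn1 at 11.5 ± 7.49 and Postn at 9.72 ± 6.94 stood higher in the order than in db/db (ranks 6 and 8, against ranks 8 and 10 in db/db). Pdgfra, at 10.7 ± 5.12 in db/m, overlapped with both of them. The higher db/m means of Fn1 and Postn came from the Adipoq-rich libraries, which averaged 205 and 136 CPM. In db/m 2 and db/m 4 these genes averaged 64.4 and 32.8 CPM, against 68.4 and 42.5 CPM in db/db.

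The profiles of the markers over the libraries differed in how near they lay to one another. The mean log2 CPM of the 10 was 6.46, 7.03, 6.82 and 6.76 in db/db 1 to 4, against 7.43, 6.30, 7.26 and 6.36 in db/m 1 to 4. Among the db/db libraries, db/db 2 was the highest for 8 markers and db/db 1 the lowest for 8. Tcf21, highest in db/db 1, and Fn1, lowest in db/db 2, departed from that order. Postn, Fn1 and Dpep1 lay farthest from the mean profile of the 10, with root mean square differences of 0.52, 0.50 and 0.44 on the log2 scale, and the other 7 lay at 0.10 to 0.28. For Dpep1 that difference was as large as the SD of its own log2 level over the libraries (0.44), and for Tcf21 it was 0.28 beside an SD of 0.33. Between the Adipoq-rich libraries, 8 markers were higher in db/m 1 and 2 in db/m 3, although Adipoq was higher in db/m 3, at 92.8 CPM against 47.6 CPM in db/m 1. The markers higher in db/m 3 were Fn1 and Pdgfra, the longest of the 10 at 11685 and 10024 bases. Dpt, the shortest at 1724 bases, had the lowest ratio of db/m 3 to db/m 1, at 0.524. Tcf21 and Lum, the next shortest, stood apart from an order by length, at 0.888 and 0.952. From Dpep1 through Gsn, Mfap5 and Dcn to Postn the ratio rose with length or stayed level, at 0.706, 0.754, 0.763, 0.763 and 0.885. When each library's dependence on gene length was fitted and removed, an alternative chosen after seeing the data, Pdgfra had a log2 fold change of 0.18 and Fn1 of -0.71, and edgeR again called 0 markers.

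**Figure D3:**
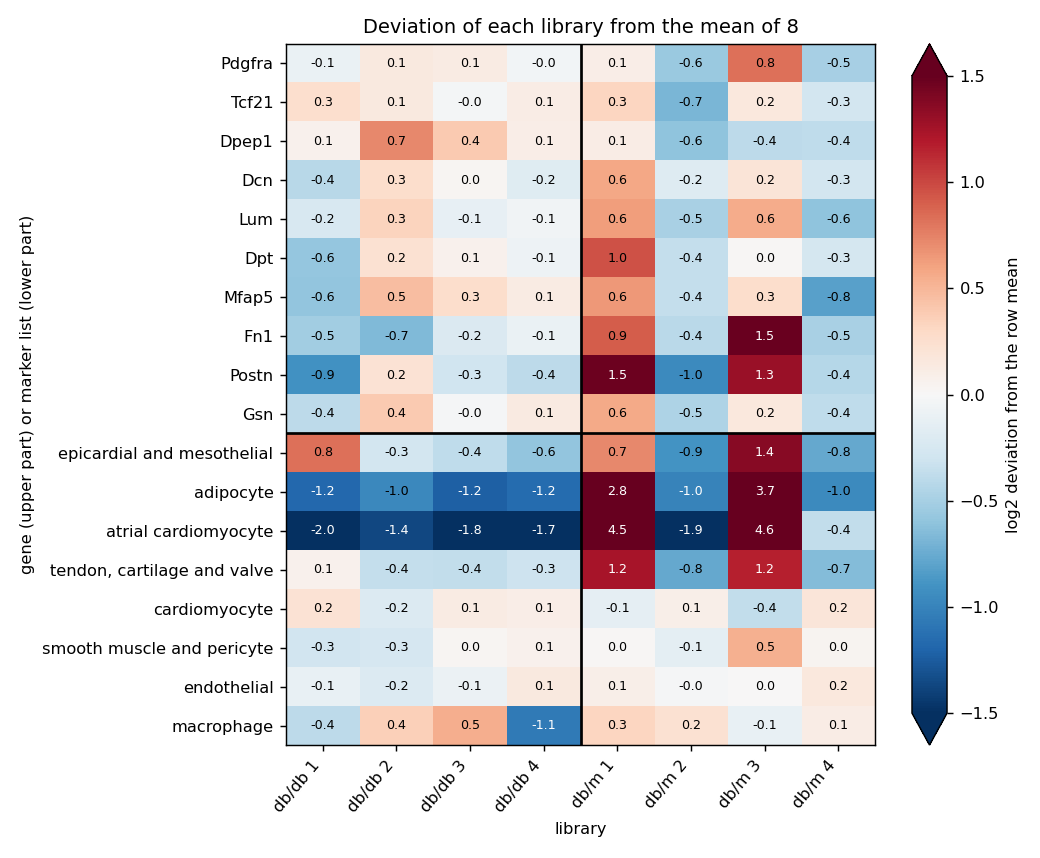
Deviation of each library (columns, db/db left and db/m right) from the mean of the 8 libraries, for each marker in log2 CPM (upper part) and for the mean log2 of CPM + 1 of each list of cell type markers (lower part). Colours end at ±1.5 and the numbers give the value. Both db/m 1 and db/m 3 are above the mean in 9 of 10 markers (0.0 for Dpt in db/m 3 is 0.02). They are likewise above it in the epicardial, adipocyte, atrial and tendon lists. In the smooth muscle list db/m 1 (mean log2 6.82) is only just above the mean and below db/m 4 (6.84). In the endothelial list the same holds for db/m 3 (7.27, against 7.42 in db/m 4).

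Among the lists of cell type markers, those of fat, atria, and tendon, cartilage and valve followed the division of the controls most often. Lists of matrix genes followed it too, as counted below. Leaving aside Adipoq, whose counts chose these libraries, both lay above the other 6 in 8 of the 9 further adipocyte markers, and the 10 had a summed level of 336 to 645 CPM in db/db and 337 to 1434 CPM in db/m. Of these, Ucp1 and Retn had 0 counts in all 4 db/db libraries, and the sum in db/db is mostly Fabp4, which endothelial cells express too. In the list of atrial cardiomyocytes it was 6 of 6, with 24.9 to 118 CPM in db/db and 16.0 to 3887 CPM in db/m, and Sln had 0 counts in all 4 db/db libraries. In the list of tendon, cartilage and valve it was 5 of 6, with 18.8 to 33.4 CPM in db/db and 13.4 to 115 CPM in db/m, Tnmd being at 0 in all 4 db/db libraries. These counts include genes left out by the filter: 3 of 10 adipocyte, 2 of 6 atrial and 4 of 6 tendon, cartilage and valve markers were tested. The pattern was present in 15.0% of genes tested. Among 8 epicardial and mesothelial markers it was 2, with 38.8 to 81.9 CPM in db/db and 34.2 to 130 CPM in db/m. The part of fat, atrial, valve or epicardial tissue in the level of the fibroblast markers was not tested, and without these libraries the values are those given above.

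In further lists the same pattern was counted. Among the gene lists described below it was seen in 11 of 12 other small leucine-rich proteoglycans, of which 8 were tested. It was also seen in 11 of 14 elastic microfibril genes, 13 of 30 other fibroblast genes and 10 of 20 activated or matricellular genes. In PDGF and TGF-beta genes it was 6 of 15, in fibronectin receptors 3 of 6 and in gelsolin relatives 0 of 6. Among 6 cardiomyocyte markers it was seen in 0. Among 7 endothelial markers the Adipoq-rich libraries were above the other 6 in 2, with summed levels of 1364 to 1912 CPM in db/db and 1536 to 1767 CPM in db/m, and among 8 smooth muscle and pericyte markers also in 2 (2248 to 2743 CPM in db/db and 2335 to 2704 CPM in db/m). Macrophage markers ranged from 334 to 1059 CPM in db/db and from 466 to 797 CPM in db/m, with both Adipoq-rich libraries on top in 1 of 7. Erythroid markers had 1324 to 1978 CPM in db/db and 1291 to 2951 CPM in db/m, and in 0 of 5 were those libraries on top. Lymphocyte markers summed to at most 2.86 CPM in db/db and 3.17 CPM in db/m (0 of 5), and Schwann cell markers to 12.4 to 22.8 CPM in db/db and 9.77 to 33.7 CPM in db/m (1 of 4).

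Further genes of cardiac fibroblasts were divided in direction. Of 30 measured in both comparisons, edgeR called 0. With all libraries 10 were positive and 20 negative, median -0.12, and without the Adipoq-rich libraries 20 were positive and 10 negative, with a median of 0.11. Col3a1, a fibrillar collagen chain, had 109, 97.7, 93.6 and 117 CPM in db/db 1 to 4, against 252, 106, 265 and 134 CPM in db/m 1 to 4. Its log2 fold change was -0.86 (SE 0.28, edgeR adjusted p = 0.297) and -0.21 (SE 0.13) without the Adipoq-rich libraries. It rose there but stayed negative, where all 10 markers were positive. Vim, the intermediate filament of mesenchymal cells, was likewise highest in the Adipoq-rich libraries, with 208 to 309 CPM in db/db and 245 to 863 CPM in db/m. The log2 fold change of Vim was -0.90 (SE 0.36), and -0.00025 (SE 0.15) without the Adipoq-rich libraries. Ccdc80, a matrix protein abundant in fat, had 82.3 to 163 CPM in db/db and 125 to 422 CPM in db/m. Its log2 fold change was -1.03 (SE 0.40), and -0.038 (SE 0.24) without those libraries.

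Relatives of Dcn and Lum leaned the same way. The 12 other small leucine-rich proteoglycans included 8 that could be tested, of which 0 passed and all 8 were negative, with a median of -0.50; without the Adipoq-rich libraries 5 were positive and the median was 0.20. Prelp, which anchors basement membranes, had 112, 117, 113 and 124 CPM in db/db 1 to 4, against 303, 118, 311 and 130 CPM in db/m 1 to 4. Podn had 18.2 to 20.7 CPM in db/db, against 51.6, 21.2, 88.9 and 19.9 CPM in db/m 1 to 4, and Ecm2 had 41.8 to 50.6 CPM in db/db and 40.9 to 93.2 CPM in db/m. Fmod, fibromodulin, a gene of tendon and valve, had 15.3, 3.94, 3.13 and 2.24 CPM in db/db 1 to 4, against 79.9, 0.393, 43.9 and 0.522 CPM in db/m 1 to 4.

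Microfibril and elastic fibre genes, the partners of Mfap5, gave 0 calls among 14, with 3 positive and 11 negative and a median of -0.42 (10 positive and 0.15 without the Adipoq-rich libraries). Ltbp4, a latent TGF-beta binding protein, had 455, 499.5, 459.6 and 510.4 CPM in db/db 1 to 4, against 950.5, 563, 1044 and 659 CPM in db/m 1 to 4. The groups did not overlap, and its log2 fold change was -0.74 (SE 0.20, edgeR adjusted p = 0.245) with all libraries and -0.35 (SE 0.11, edgeR adjusted p = 0.252) without the Adipoq-rich ones. Fbn1, fibrillin, the backbone of microfibrils, had 93.2 to 98.5 CPM in db/db and 111 to 180.3 CPM in db/m, with a log2 fold change of -0.50 (SE 0.16) and of -0.25 (SE 0.095) without the Adipoq-rich libraries. Ltbp2 ranged from 2.80 to 8.63 CPM in db/db and from 3.58 to 43.1 CPM in db/m.

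Genes of activated fibroblasts and of matricellular proteins did not move as one. Of 19 tested, 0 passed with all libraries, where 5 were positive and 14 negative with a median of -0.53, and without the Adipoq-rich libraries 13 were positive, the median was 0.31 and 1 passed. That gene was Thbs2, a thrombospondin that limits matrix turnover and vessel growth, with 60.3, 76.2, 74.2 and 60.1 CPM in db/db 1 to 4, against 46.8, 30.7, 64.3 and 40.6 CPM in db/m 1 to 4. Thbs2 rose without the Adipoq-rich libraries, by a log2 fold change of 0.92 (SE 0.15, edgeR adjusted p = 0.0384), and with all libraries it had 0.57 (SE 0.21, edgeR adjusted p = 0.330). Among all genes 0.256% passed in that comparison.

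Acta2, smooth muscle actin, which myofibroblasts and vessel walls express, had 35.1, 60.2, 64.0 and 65.0 CPM in db/db 1 to 4, against 154, 133, 286 and 108 CPM in db/m 1 to 4. The groups did not overlap and every db/db library was lower, with a log2 fold change of -1.60 (SE 0.31, edgeR adjusted p = 0.136) and of -1.11 (SE 0.24, edgeR adjusted p = 0.147) without the Adipoq-rich libraries, and it did not pass in either comparison. Comp, the cartilage oligomeric matrix protein, had 0.640 to 1.47 CPM in db/db, against 50.3, 0.540, 32.0 and 0.950 CPM in db/m 1 to 4.

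**Figure D4:**
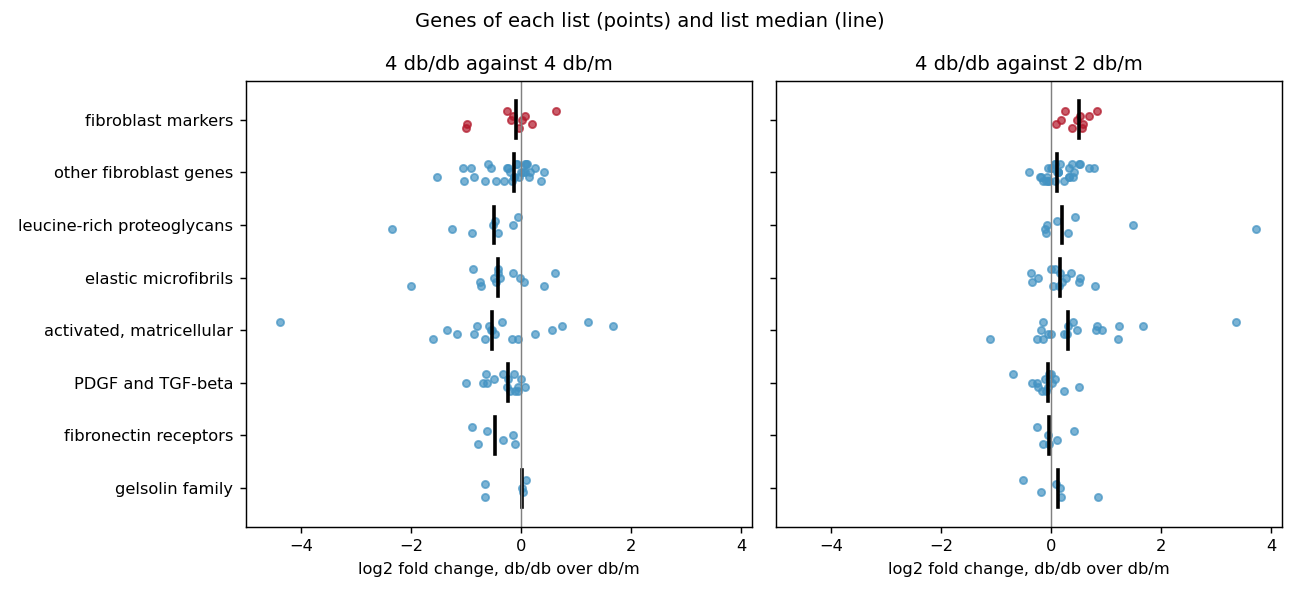
Log2 fold change, db/db over db/m (horizontal axis), of each tested gene (points) in the markers and 7 related gene lists (rows), with list medians as black lines, for all libraries (left) and without the Adipoq-rich db/m libraries (right). The median of the 10 markers lies at -0.09 on the left and at 0.50 on the right, where the other lists have medians from -0.06 to 0.31.

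The list of PDGF and TGF-beta ligands, receptors and SMADs gave 0 calls among 15 genes in either comparison. With all libraries 2 were positive and 13 negative, with a median of -0.24, and without the Adipoq-rich libraries 4 were positive, with a median of -0.06. Smad7, the inhibitory SMAD, had 40.4, 56.8, 59.0 and 67.1 CPM in db/db 1 to 4, against 74.3, 104, 93.8 and 77.4 CPM in db/m 1 to 4, with no overlap. Its log2 fold change was -0.64 (SE 0.18, edgeR adjusted p = 0.245), and -0.70 (SE 0.19, edgeR adjusted p = 0.210) without the Adipoq-rich libraries. Smad3, the receptor-activated SMAD of TGF-beta signalling, had 30.1 to 35.8 CPM in db/db and 40.9 to 64.8 CPM in db/m (log2 fold change -0.62, SE 0.16, edgeR adjusted p = 0.238), and Pdgfc, a ligand of Pdgfra, had 3.26 to 6.68 CPM in db/db and 4.89 to 14.6 CPM in db/m.

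Receptors of fibronectin gave 0 calls among 6 genes, all negative with all libraries (median -0.47) and 2 positive without the Adipoq-rich ones (median -0.04). The heparan sulfate proteoglycan Sdc4 had 21.5 to 27.8 CPM in db/db and 26.3 to 69.5 CPM in db/m, the integrin chain Itgav 35.6 to 45.0 CPM in db/db and 32.9 to 70.5 CPM in db/m, and Itga4 2.88 to 8.24 CPM in db/db and 5.70 to 21.5 CPM in db/m. Of the relatives of Gsn, 0 of 5 tested passed, with a median of 0.02 (0.12 over 6 tested without the Adipoq-rich libraries). Flii had 78.8 to 97.7 CPM in db/db and 76.8 to 98.9 CPM in db/m, Svil 279 to 370.3 CPM in db/db and 261 to 419 CPM in db/m, and Capg 4.63 to 10.9 CPM in db/db and 6.84 to 9.50 CPM in db/m.

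The genes whose profile over the 8 libraries lay nearest to the mean profile of the markers were P3h3, Mxra8, Frzb, Mst1r and Emp1, at root mean square differences of 0.11, 0.11, 0.14, 0.14 and 0.15 on the log2 scale. The median over the 14468 genes compared, those with a mean of at least 2 CPM, was 0.48. P3h3, a collagen prolyl 3-hydroxylase family member, had 16.9, 24.7, 20.9 and 23.1 CPM in db/db 1 to 4, against 30.3, 14.6, 25.9 and 17.3 CPM in db/m 1 to 4. Mxra8, a membrane adhesion protein, had 48.2, 60.8, 52.6 and 50.7 CPM in db/db 1 to 4, against 83.5, 33.0, 76.0 and 43.9 CPM in db/m 1 to 4. Frzb, a secreted Wnt antagonist, had 14.8 to 25.3 CPM in db/db and 11.5 to 32.8 CPM in db/m. Their log2 fold changes were -0.25 to -0.02 with all libraries and 0.16 to 0.65 without the Adipoq-rich ones, values that the choice by profile largely fixed, and none of the 5 passed edgeR in either comparison.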

How the data were processed

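The deposited values are raw counts per Ensembl gene, whole numbers with 1 column per library. The deposited table and the 8 single-library files hold identical counts, and the deposited gene length in bases, another value of that table, was used for levels per kilobase. The genome build was mm10, per the submitters' processing notes. Which aligner, counter, annotation release and strand setting were used is not given in the sources used here, so reads of overlapping genes cannot be told apart by strand. Among the markers Pdgfra and Fn1 share exon bases with other genes, which averaged at most 1.625 counts per library. BLAST 2.17.0 found 1 near-identical transcript (95% identity over 200 bases), Gm42802 for Pdgfra, with 0 counts. How reads matching several places were counted is not given in the sources used here. Symbols were matched by identifier for 55394 of 55573 genes.

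Genes were kept by filterByExpr (minimum count 10, total 15) and tested with edgeR 4.0.16 in R 4.3.3 (TMM scaling, robust quasi-likelihood F test, genotype as the single factor, two-sided, Benjamini-Hochberg over all tested genes, threshold 0.05). Fold changes set db/db over db/m, and SEs derive from the test. Mean log2 CPM used a prior count of 2. The second comparison left out the db/m libraries with over 100 Adipoq counts. Alternatives were DESeq2 1.42.0, limma-voom (limma 3.58.1) with sample weights, other scalings and filters, a replicate block, and each library left out. The scripts were tested on simulated data. Other genes were named by rule: from each list those past the threshold and up to 3 with the smallest p at a mean of at least 2 CPM (for cell types, the highest mean CPM), and the 5 nearest profiles. A gene that this rule names is not reported here. Fmod is also in a cell type list, and Retn, Sln and Tnmd are named as markers at 0. The markers, lists and tests were chosen with earlier results of these data known. Promoters are from RefSeq on GRCm38.p6. Chi-square per gene between libraries of 1 genotype was at least 13.98, above counting noise. This does not show that the libraries came from separate animals.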

Additional observations from a re-analysis of the deposited data

Results flagged for a closer look

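In 142 groups of 4 libraries, from 71 genes named by the rule, 13 held a library far from the other 3, and chance flags about 1 group in 20. None of the 20 groups of the fibroblast markers was among them. In db/db 1, 3 genes stood apart. The mesothelial gene Upk3b had 27.1 CPM there, with 2.99 to 5.49 CPM in the other db/db libraries, and the proteoglycan gene Fmod had 15.3 CPM, with 2.24 to 3.94 CPM in the others. In the same library Acta2 was low, at 35.1 CPM against 60.2 to 65.0 CPM. The level of the 10 markers was the lowest of the db/db libraries there too.

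In db/m 3 the atrial gene Bmp10 had 3072 CPM, with 0.332 to 103 CPM in the other db/m libraries, and Itga4 had 21.5 CPM with 5.70 to 8.17 CPM in the others. Fabp4 was low there, at 186 CPM against 309 to 327 CPM, and so was Cd79a, at 0.496 CPM against 0.835 to 0.879 CPM. In db/m 2 the haemoglobin genes Hba-a1 (801 CPM, others 350.1 to 388 CPM) and Hba-a2 (670 CPM, others 307 to 344 CPM) were high. These 2 genes are near-identical, so their split of counts is uncertain. Single values stood apart for Capg in db/m 1 (9.50 CPM, others 6.84 to 7.12 CPM), Flii in db/db 4 (97.7 CPM, others 78.8 to 81.9 CPM), Cd3e in db/db 3 (1.66 CPM, others 0.323 to 0.480 CPM) and Lepr in db/db 3 (3.73 CPM, others 6.24 to 6.68 CPM).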

How the results depend on the processing

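The count of fibroblast markers called was 0 in 19 of 20 alternatives and 3 by DESeq2 without the Adipoq-rich libraries. Their median log2 fold change, -0.09 with all libraries, was 0.20 by limma-voom, 0.50 without the Adipoq-rich libraries by edgeR and by DESeq2 and 0.49 with the gene length trend removed as well, and -0.23 to 0.11 without any 1 library, positive without db/m 1 (0.11) or without db/m 3 (0.061). Genes called over all genes were 1, and 377 by DESeq2, 130 by limma-voom, 27 with no filter, 5 with the replicate block, 12 with the length trend removed, 0 to 106 without any 1 library (106 without db/m 3), and without the Adipoq-rich libraries 46 by edgeR, 336 by DESeq2 and 68 with the length trend removed. Library totals without scaling moved the median of all genes to -0.13 and that of the markers to -0.23, with 2 markers positive and 8 negative.

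Signs that turned, none past the threshold by edgeR, were as follows. Without the Adipoq-rich libraries, by edgeR, DESeq2 and edgeR with the length trend removed, Pdgfra had 0.56, 0.56 and 0.59, Dcn 0.17, 0.18 and 0.20, Lum 0.53, 0.53 and 0.51, Postn 0.37, 0.37 and 0.41, Fn1 0.080, 0.082 and 0.10, and Dpt 0.25, 0.25 and 0.23. By limma-voom, Pdgfra had 0.37 and Lum 0.22. With the length trend removed, Pdgfra had 0.18 and Gsn -0.024, and by library totals Gsn had -0.10 and Mfap5 -0.049. Without any 1 library, Pdgfra ranged from -0.20 to 0.33, Dcn from -0.29 to 0.029, Lum from -0.30 to 0.077, Gsn from -0.11 to 0.27, Mfap5 from -0.11 to 0.36 and Dpt from -0.39 to 0.14. Dpep1 ranged from 0.48 to 0.80 there. Tcf21 and Dpep1 kept their sign in all 20 alternatives. Same-numbered libraries of the genotypes did not deviate together (correlation across genes -0.09 to 0.06), which gave no sign of pairing and cannot exclude it. In the replicate block Pdgfra had 0.067 and the markers a median of 0.0064. The causes were not tested. With 2 db/m libraries left, the spread of that group is poorly known.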
